A study of Homo sapiens with 12 samples.

Results

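Genes for 9 secreted proteins were followed in RNA recovered with HuR in the established human hepatoma line HuH-7. They were the chemokine genes CXCL1, CXCL2, CXCL3, CXCL5 and CXCL8, and the genes IGFBP1, IGFBP4, PLAU and TIMP1. They were chosen by name, with earlier results of these data known. The Ensembl identifiers of the deposited counts were matched to gene symbols, and all 9 were found among 57773 identifiers. Of the 9, 7 had enough counts to be tested, and IGFBP1 and TIMP1 were too low to measure.

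The study sequenced RNA from lines carrying a V5-tagged HuR, the RNA-binding protein encoded by ELAVL1. The groups were mutant RIP (RNA immunoprecipitated by the tag from the line stably expressing HuR K120/182R), WT RIP (the same from the line stably overexpressing wild-type HuR), mutant input and WT input (total RNA of each line before precipitation), with 3 libraries in each. K120/182R replaces a pair of lysines by arginines and is described as a SUMOylation mutant, SUMOylation being the joining of a ubiquitin-related peptide, SUMO, to lysine side chains. The labels do not say whether the cells' own HuR was still present, or whether the replicates were separate cultures, so the spread behind each p-value may be only technical. The column headers carry the word DMSO, which the labels do not explain. Neither an untagged line nor a mock pull-down was analysed here, so RNA that sticks to the beads could not be set apart.

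Totals were 31774994 to 73149117 gene counts per library. Each RIP library began with 16 to 77 ng of RNA, each input library with 250 ng. Levels within a gene are given in CPM, the count scaled to a common library size with edgeR's TMM (trimmed mean of M values) factors. ELAVL1 itself, counted without regard to whether its RNA came from the transgene, had 31.6, 25.2 and 24.9 CPM in mutant RIP, against 38.0, 33.0 and 32.5 CPM in WT RIP. In the inputs it had 52.7, 48.0 and 44.4 CPM in the mutant line, against 64.2, 54.1 and 56.4 CPM in the WT line. The mutant libraries were below the WT libraries in both, and neither difference was called (adjusted p = 0.0561 and 0.14, edgeR's quasi-likelihood test). Hepatocyte and hepatoma markers summed to 4030 to 4470 CPM in mutant RIP, 6160 to 6390 CPM in WT RIP, 9420 to 10500 CPM in mutant input and 12000 to 13900 CPM in WT input, with AFP the highest of them (mean 5127 CPM in mutant input and 8337 CPM in WT input). Between inputs 3 of 11 were called, AFP, KRT8 and KRT18, all lower in the mutant (10% of all genes were), whereas ALB averaged 785 CPM in mutant input and 662 CPM in WT input and was not called. Immune cell markers summed to 15 CPM or less and stromal and endothelial markers to 3.92 CPM or less in every library, and no marker of either list was at 0 in all 12.

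HuR typically recognises U-rich and AU-rich stretches of 3′ untranslated regions (3′ UTRs), where it can stabilise mRNAs that other proteins would send to decay. CXCL1, CXCL2, CXCL3, CXCL5 and CXCL8 encode ELR-motif chemokines that draw neutrophils through the receptors CXCR1 and CXCR2, and their mRNAs are classical examples of short-lived AU-rich transcripts. Senescent cells secrete such chemokines together with proteases, protease inhibitors and growth factor binding proteins, a set of factors named the senescence-associated secretory phenotype (SASP). IGFBP1 and IGFBP4 bind insulin-like growth factors, PLAU is the urokinase plasminogen activator, and TIMP1 inhibits matrix metalloproteinases.

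The 5 chemokine genes lie in 1 cluster on chromosome 4. On hg19, CXCL1 (ENSG00000163739) spans 74735110 to 74737025 and CXCL8 (ENSG00000169429) spans 74606236 to 74609433, both on the plus strand. CXCL2 (ENSG00000081041) spans 74962757 to 74964913, CXCL3 (ENSG00000163734) 74902306 to 74904524 and CXCL5 (ENSG00000163735) 74861359 to 74864394, all on the minus strand. IGFBP1 (ENSG00000146678) is on chromosome 7 at 45927959 to 45933259, IGFBP4 (ENSG00000141753) on chromosome 17 at 38599702 to 38613977, PLAU (ENSG00000122861) on chromosome 10 at 75668935 to 75677254 and TIMP1 (ENSG00000102265) on chromosome X at 47441807 to 47446188, all on the plus strand.

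The 3′ UTRs of the chemokines carry runs of the AU-rich pentamer ATTTA, the element HuR is known for. For each tested gene a 30-base window is shown. It is the window with the most copies of the longer motif TATTTAT, ties being settled by the number of ATTTA. Each line is the sense strand of hg19, 5′ to 3′, with every ATTTA in capitals and overlapping copies joined.
CXCL1: ttaggagaagtcttctATTTATTTATTTAt
CXCL2: agtcttctATTTATTTATTTATTTATTTAt
CXCL3: tacgagggttctacttATTTAtgtATTTAt
CXCL5: aacgtatgtATTTAtatattatatATTTAt
CXCL8: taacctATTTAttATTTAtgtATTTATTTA
IGFBP4: ttcactcatccagccacctaaaaacATTTA
PLAU: gaatATTTAtatttcactatttttATTTAt
These windows lie at chr4:74736383-74736412 (CXCL1), chr4:74963306-74963335 (CXCL2), chr4:74902806-74902835 (CXCL3), chr4:74861564-74861593 (CXCL5), chr4:74608825-74608854 (CXCL8), chr17:38613161-38613190 (IGFBP4) and chr10:75677174-75677203 (PLAU). CXCL1 and CXCL2 hold an unbroken stack of overlapping pentamers, whereas IGFBP4 holds a single copy at the end of its window.

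Counted over the whole 3′ UTR of the canonical transcript on the sense strand, with overlapping copies counted separately, ATTTA occurs 6 times in the 772 bases of CXCL1, 10 times in the 716 bases of CXCL2 and 7 times in the 673 bases of CXCL3. It occurs 11 times in the 1995 bases of CXCL5 and 9 times in the 1252 bases of CXCL8. PLAU has 2 copies in 929 bases and IGFBP4 has 1 in 1142 bases. Of the untested genes, IGFBP1 has 5 copies in 569 bases and TIMP1 has none in 98 bases. CXCL2 stands furthest from other genes: 0.09% of 3′ UTRs of like length (0.8 to 1.25 times its own) hold as many copies, against 0.97% for CXCL3, 3.04% for CXCL8, 4.36% for CXCL1 and 5.26% for CXCL5. For PLAU and IGFBP4 the same shares are 48.96% and 79.57%. The longer motif TATTTAT is present in 6 of the 7 tested genes, IGFBP4 being the one without it, and in 31.5% of 19403 3′ UTRs.

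The chemokine promoters also share a letter pattern. Each of the 5 holds the NF-κB type sequence GGAATTTCC, sought on both strands of the 300 bases from 250 before to 50 after the start in RefSeq's promoters on GRCh38.p14, where 0.46% of 35116 promoters hold it. The motif is in capitals in these windows of the sense strand, with 10 bases on each side.
CXCL1: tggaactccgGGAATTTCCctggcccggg
CXCL2: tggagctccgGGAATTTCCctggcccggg
CXCL3: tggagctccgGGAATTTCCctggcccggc
CXCL5: atgagttcagGGAATTTCCccagcatccc
CXCL8: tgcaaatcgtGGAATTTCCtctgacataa
On GRCh38.p14 they are chr4:73869305-73869333 (CXCL1), chr4:74099254-74099282 (CXCL2), chr4:74038749-74038777 (CXCL3), chr4:73998749-73998777 (CXCL5) and chr4:73740468-73740496 (CXCL8). The motif starts 77 to 91 bases before the start site in all 5. The letters were not found in the promoter windows of IGFBP4, PLAU or TIMP1. A match is a description of letters and was not tied to binding in these cells.

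Of the 9 genes, 2 gave almost no reads. IGFBP1, although a liver product, had 2 counts over all 12 libraries, both in mutant RIP 2. TIMP1 had 28 counts over all 12 libraries, with 4, 0 and 2 in mutant RIP, 0, 0 and 4 in WT RIP, 6, 0 and 2 in mutant input, and 6, 2 and 2 in WT input. A count of 0 allows up to 3 counts, which corresponds to 0.0421 to 0.0894 CPM depending on the library and covers counting error only. No fold change is given for either gene. The scarcity of TIMP1 was not shared by its relatives TIMP2 and TIMP3, which passed the filter.

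Levels of different genes are compared per kilobase of exon (RPKM, the CPM divided by the exon length in kilobases). CXCL5, also known as ENA-78, was the highest of the 7 in every group, at 9.44 ± 1.27 RPKM in mutant RIP, 17.1 ± 1.84 RPKM in WT RIP, 11 ± 0.986 RPKM in mutant input and 16.2 ± 3.66 RPKM in WT input (SD, n = 3 each). In mutant RIP, CXCL2 (5.12 RPKM) and CXCL8 (2.52 RPKM) came next, followed by CXCL1 (1.62), PLAU (1.21), CXCL3 (1.19) and IGFBP4 (0.364). In WT RIP, CXCL8, CXCL2 and CXCL1 followed at 7.43, 6.64 and 6.49 RPKM, which lie within 1 SD of each other. PLAU (1.89), CXCL3 (1.06) and IGFBP4 (0.129) were lower. In mutant input the second place was held by CXCL2 (3.33 RPKM), and CXCL1 (1.42), PLAU (1.38), IGFBP4 (1.05), CXCL8 (1.03) and CXCL3 (0.68) came after it. In WT input it was held by CXCL1 (4.02 RPKM), close to CXCL2 (2.85) and CXCL8 (2.83), with PLAU (2.16), CXCL3 (0.521) and IGFBP4 (0.34) last. Neighbours 1 SD or less apart are not ordered by these data.

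**Figure D1:**
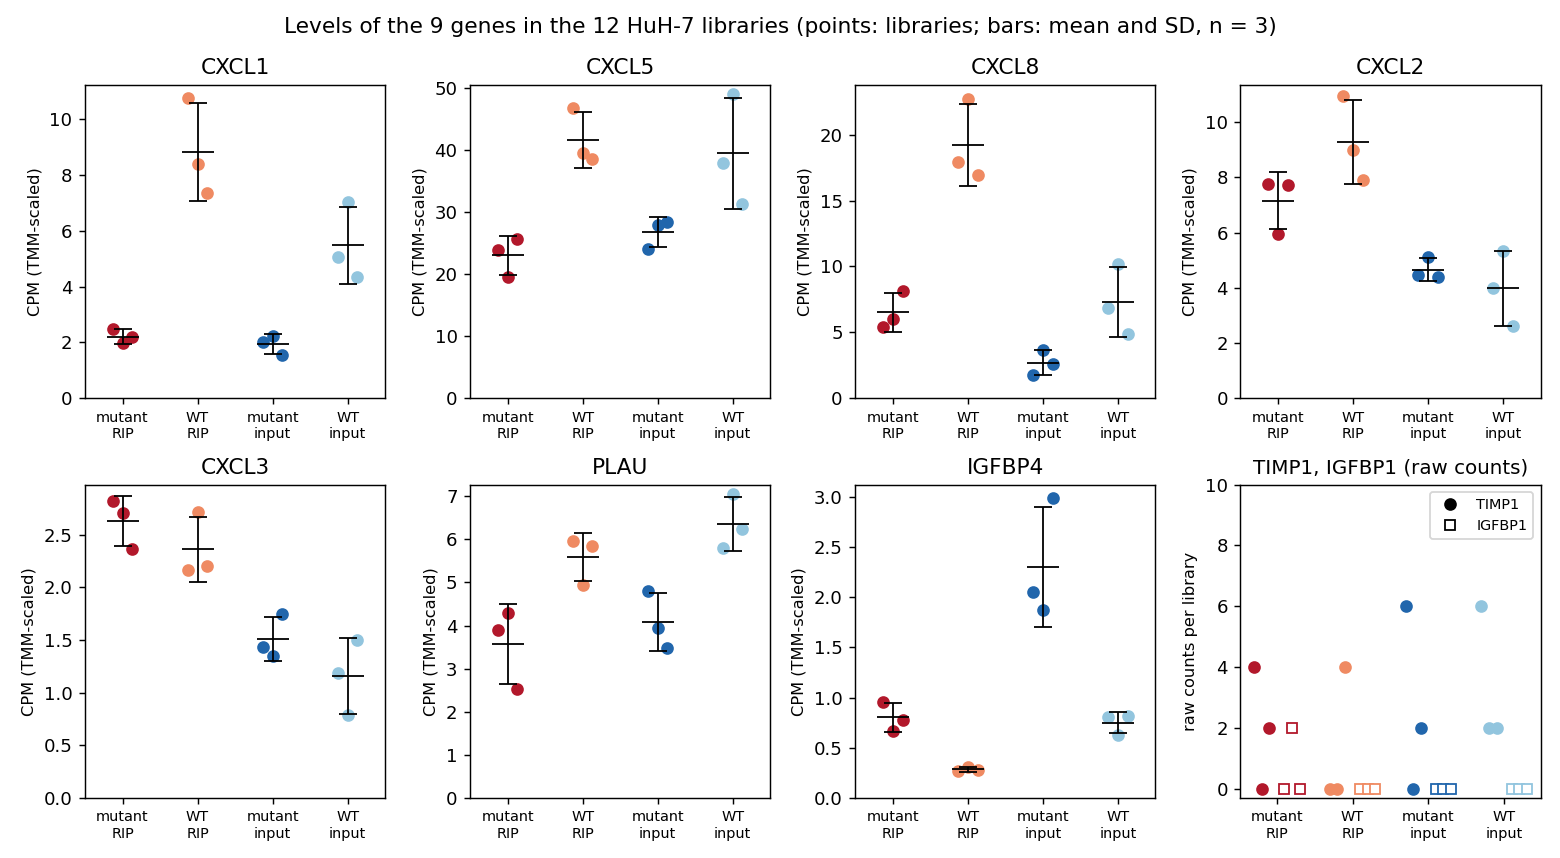
Level of each tested gene in CPM on a linear axis from 0, with the 3 libraries of mutant RIP, WT RIP, mutant input and WT input as points and the mean and SD as bars, and the raw counts of TIMP1 and IGFBP1 in the last panel. CXCL1 and CXCL8 are lower in mutant than in WT libraries in both RIP and input, and IGFBP4 is higher, while TIMP1 and IGFBP1 have 6 counts or fewer in every library.

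The first comparison asked which of these RNAs differed between the lines before precipitation. In the inputs, CXCL1, CXCL8, CXCL5 and PLAU were lower in the mutant line than in the WT line, IGFBP4 was higher, and CXCL2 and CXCL3 did not pass the test. Thus 5 of the 7 tested genes were called at an adjusted p under 0.05, beside 17.5% of all 22984 genes tested. The 4 lower genes stand beside 10% of all genes called lower, and the 1 higher gene beside 7.47% called higher. In bulk RNA of this kind, fewer cells with an RNA and less of it per cell cannot be told apart.

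CXCL1, the founding growth-regulated chemokine of this group, had 2.03, 2.24 and 1.53 CPM in mutant input, against 5.07, 7.02 and 4.33 CPM in WT input. The groups did not overlap, and every mutant library was below the lowest WT library. Such separation is common: between inputs, 18.1% of all genes tested were lower in every mutant library and 15.6% were higher. The log2 fold change was −1.5 ± 0.21 (SE, Benjamini-Hochberg adjusted p = 2.41e-05 by edgeR's quasi-likelihood test, as for all adjusted p-values below). CXCL8, interleukin 8, had 1.76, 3.67 and 2.59 CPM in mutant input, against 6.87, 10.2 and 4.89 CPM in WT input. These groups were separated too, with a log2 fold change of −1.44 ± 0.29 (adjusted p = 0.0031). CXCL5 had 24.0, 27.9 and 28.4 CPM in mutant input, against 37.9, 49.1 and 31.4 CPM in WT input. Its groups stood apart by a smaller margin, and the log2 fold change was −0.56 ± 0.15 (adjusted p = 0.00891). The CXCL5 call was lost when the trend with GC content was removed (−0.29, adjusted p = 0.0677) and without WT input 2, the highest library (−0.37, adjusted p = 0.115). An antisense lncRNA that the files do not count, ENSG00000287037, shares 17.32% of the CXCL5 exon bases.

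CXCL2, which like CXCL1 signals through CXCR2, had 4.47, 5.12 and 4.39 CPM in mutant input, against 3.97, 5.34 and 2.62 CPM in WT input. The groups overlapped (log2 fold change 0.24 ± 0.20, adjusted p = 0.475). CXCL3, their close paralog, had 1.43, 1.35 and 1.75 CPM in mutant input, against 1.18, 0.786 and 1.5 CPM in WT input. These groups overlapped as well (0.37 ± 0.25, adjusted p = 0.341). CXCL1, CXCL2 and CXCL3 share 5.33%, 10.1% and 5.26% of their mRNA 50-mers with other genes, chiefly with each other, so a share of their reads could be assigned to the wrong paralog or dropped. How the authors' counting treated such reads is not given in the sources used here.

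PLAU had 4.80, 3.95 and 3.49 CPM in mutant input, against 5.79, 7.04 and 6.24 CPM in WT input. No mutant library reached a WT library, and the log2 fold change was −0.64 ± 0.19 (adjusted p = 0.0194). The call was lost without WT input 2 (−0.56, adjusted p = 0.0904), mutant input 2 (−0.59, adjusted p = 0.0737) or mutant input 3 (−0.53, adjusted p = 0.101). Under total-count scaling, which moved the median of all genes in this comparison to −0.426, PLAU was at −1.06 and CXCL5 at −0.97. Without WT input 2, which touches both CXCL5 and PLAU, 3 of the 7 genes were called. PLAU is also uncertain because 31.03% of its exon bases are shared with the antisense gene C10orf55 (29 to 139 counts per library), and the strand setting of the counting is not given in the sources used here.

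IGFBP4 was the exception in direction. It had 2.06, 1.87 and 2.99 CPM in mutant input, against 0.803, 0.629 and 0.815 CPM in WT input. All mutant libraries were above all WT libraries, with a log2 fold change of 1.61 ± 0.29 (adjusted p = 0.000378). IGFBP4 was the lowest of the 7 per kilobase in 3 of the 4 groups, with a mean log2 CPM of 0.01 over the 12 libraries. Immune cell markers summed to 13 to 15 CPM in mutant input and 8.13 to 11.1 CPM in WT input (7 of 12 markers tested), and stromal and endothelial markers to 3.20 to 3.79 CPM and 2.88 to 3.92 CPM. The quasi-likelihood test of edgeR called 0 markers of either list between the inputs. At an unadjusted p under 0.05, 2 immune markers and 1 stromal marker were higher in the mutant. No share of all genes at that unadjusted cutoff is given here. DESeq2 called 1 immune marker higher, beside 2244 of all 22092 genes it tested. The part of these markers in the differences above was not tested.

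The second comparison set the precipitates of the lines beside each other. The same 5 genes were called, each in the direction seen in the inputs, beside 19.6% of all genes tested. Of all genes, 9.76% were called lower and 9.87% higher, against 4 and 1 of the 7. Full separation of the libraries, called or not, was seen in 17.5% of all genes with the mutant lower and 18.1% with it higher. CXCL1 had 2.47, 1.96 and 2.18 CPM in mutant RIP, against 10.8, 8.39 and 7.34 CPM in WT RIP. This was the widest gap of the 7, with mutant RIP at 0.25 of the WT RIP level (log2 fold change −2.0 ± 0.20, adjusted p = 1.63e-07). CXCL8 had 5.36, 6.01 and 8.17 CPM in mutant RIP, against 18, 22.8 and 17.0 CPM in WT RIP. Its libraries were fully separated, with a log2 fold change of −1.57 ± 0.26 (adjusted p = 0.000719). CXCL5 had 23.8, 19.6 and 25.6 CPM in mutant RIP, against 46.8, 39.5 and 38.6 CPM in WT RIP. It was lower in every mutant library (−0.86 ± 0.14, adjusted p = 0.000159).

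PLAU had 3.90, 4.29 and 2.52 CPM in mutant RIP, against 5.97, 4.95 and 5.84 CPM in WT RIP. The groups did not overlap (−0.63 ± 0.18, adjusted p = 0.0156), but the call was lost without mutant RIP 3 (−0.45, adjusted p = 0.11), WT RIP 1 (−0.59, adjusted p = 0.063) or WT RIP 3 (−0.60, adjusted p = 0.0538). IGFBP4 had 0.96, 0.669 and 0.78 CPM in mutant RIP, against 0.265, 0.31 and 0.281 CPM in WT RIP. It was higher in every mutant library, with a log2 fold change of 1.49 ± 0.32 (adjusted p = 0.00152). CXCL2 had 7.78, 5.96 and 7.73 CPM in mutant RIP, against 10.9, 9.01 and 7.92 CPM in WT RIP. All mutant libraries lay below all WT libraries by a narrow margin, and the difference was not called (−0.38 ± 0.19, adjusted p = 0.177). CXCL3 had 2.82, 2.71 and 2.36 CPM in mutant RIP, against 2.17, 2.72 and 2.2 CPM in WT RIP, and these overlapped (0.16 ± 0.22, adjusted p = 0.685). Between precipitates immune cell markers summed to 9.19 to 11.9 CPM in mutant RIP and 8.02 to 9.23 CPM in WT RIP, and 1 of the 7 tested, LYZ, was called higher in the mutant (0.55, adjusted p = 0.0253). Their part in these differences was not tested.

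The calls for CXCL1, CXCL8 and IGFBP4 in inputs and precipitates held in every alternative run. The median log2 fold change of the 7 genes was −0.558 in the inputs and −0.635 in the precipitates, beside 0.00286 and 0.00803 over all genes tested. Because the genes were chosen with earlier results of these data known, these medians and the counts called describe the list and do not test it.

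**Figure D2:**
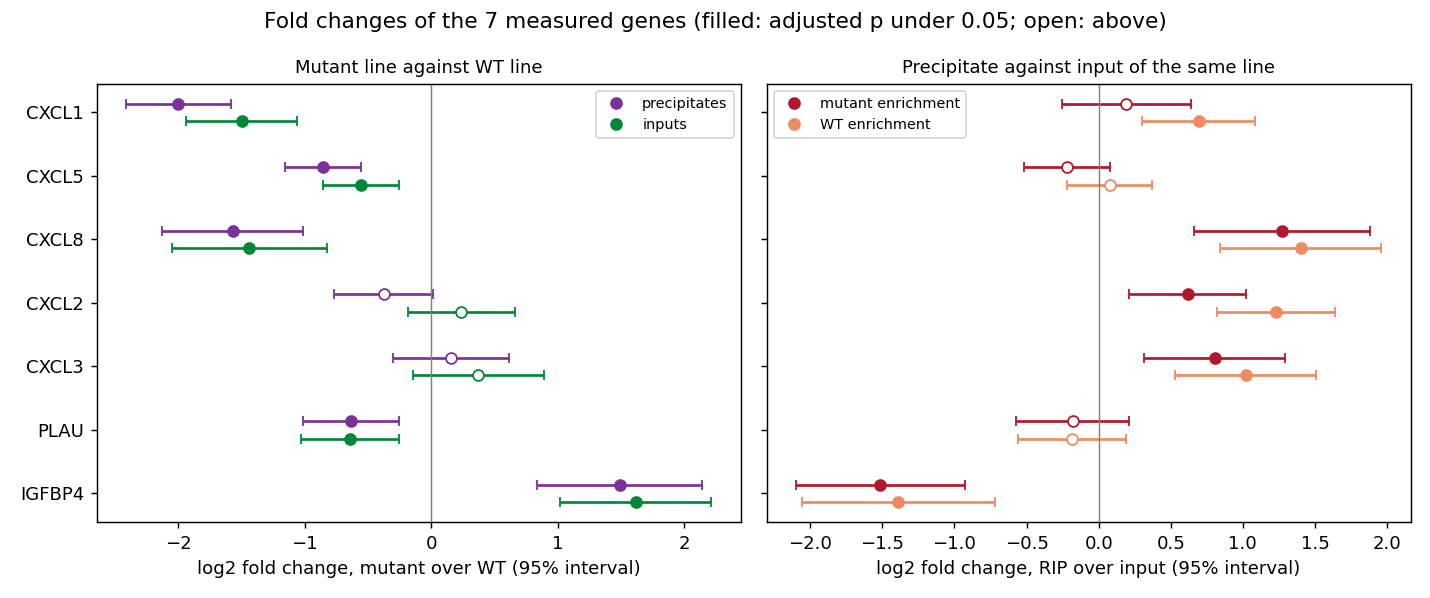
Log2 fold change with its 95% interval for each of the 7 tested genes, mutant over WT in precipitates and in inputs (left) and RIP over input with mutant and with WT HuR (right), filled where the adjusted p was under 0.05. On the left CXCL1, CXCL8, CXCL5 and PLAU lie below 0 and IGFBP4 above 0 in both precipitates and inputs, and on the right CXCL8, CXCL2 and CXCL3 lie above 0 and IGFBP4 below 0 with both proteins.

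The chemokine pool shows how much of it each gene supplied. The 5 CXCL genes together had 42.3, 36.2 and 46.0 CPM in mutant RIP, 88.6, 82.3 and 73.1 CPM in WT RIP, 33.7, 40.3 and 38.6 CPM in mutant input, and 55, 72.4 and 44.7 CPM in WT input. Every mutant library was below every WT library of its kind. In CPM, where a longer transcript gives more reads, CXCL5 supplied 54.1% to 56.4% of the pool in mutant RIP, 47.9% to 52.9% in WT RIP, 69.3% to 73.5% in mutant input and 67.8% to 70.2% in WT input. CXCL1 supplied 4.73% to 5.85% in mutant RIP and 10% to 12.2% in WT RIP, and 3.97% to 6.01% in mutant input and 9.22% to 9.7% in WT input. The share of CXCL2 ran the other way, at 16.4% to 18.4% in mutant RIP and 10.8% to 12.3% in WT RIP, and 11.4% to 13.3% in mutant input and 5.85% to 7.38% in WT input. The shares are given without a test, and a larger share of CXCL2 also follows where the others are lower.

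**Figure D3:**
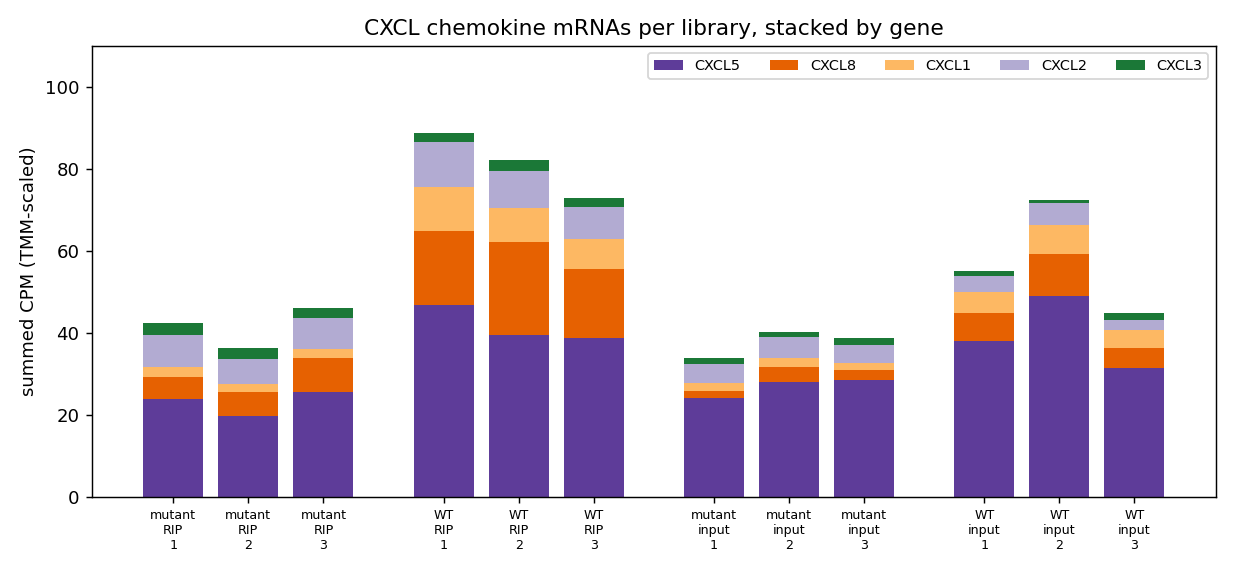
Summed CPM of the 5 CXCL genes in each of the 12 libraries, with the part of each gene stacked. The bars of WT RIP (73.1 to 88.6 CPM) stand above those of mutant RIP (36.2 to 46.0 CPM), and CXCL5 is the largest part of every bar.

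The third comparison asked which RNAs were enriched with each HuR over the input of its own line. CXCL8, CXCL2 and CXCL3 were enriched with both proteins, CXCL1 was enriched with WT HuR, CXCL5 and PLAU were at about the input level with both, and IGFBP4 was depleted with both. With the mutant, 4 of 7 genes were called (3 higher, 1 lower), beside 57% of all genes tested (29% higher, 28% lower). With WT HuR, 5 of 7 were called (4 higher, 1 lower), beside 50.9% of all genes (25.6% higher, 25.4% lower). With most of the transcriptome called, the mutant total is near the background. The higher calls with WT HuR, 4 of 7, are above their share of 25.6%. In so short a list the sizes below say more than the counts.

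CXCL8 had the highest fitted enrichment of the 7 with either protein under the TMM scaling. Its levels, given above, were higher in every RIP library than in every input library of its line. The same held for 32.9% of all genes tested with the mutant and 30.4% with WT HuR. The log2 fold change over input was 1.27 ± 0.29 with the mutant (adjusted p = 0.00139) and 1.40 ± 0.26 with WT HuR (adjusted p = 0.000374). For CXCL2 it was 0.62 ± 0.20 with the mutant (adjusted p = 0.01) and 1.23 ± 0.20 with WT HuR (adjusted p = 1.2e-05). The CXCL2 call with the mutant was lost when the GC trend was removed (0.42, adjusted p = 0.06). CXCL3 had 0.80 ± 0.24 with the mutant (adjusted p = 0.00539) and 1.02 ± 0.24 with WT HuR (adjusted p = 0.000873). With the GC trend removed CXCL8 was no longer the highest, at 0.67 with the mutant (adjusted p = 0.0255) and 1.11 with WT HuR, against 1.01 and 1.19 for CXCL3.

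CXCL1 was not called with the mutant (0.19 ± 0.22, 95% interval −0.25 to 0.64, adjusted p = 0.469) and was called with WT HuR (0.69 ± 0.19, adjusted p = 0.00366). CXCL5, despite 11 ATTTA copies in its 3′ UTR, stayed near its input, at −0.22 ± 0.15 with the mutant (adjusted p = 0.202) and 0.078 ± 0.14 with WT HuR (adjusted p = 0.678). PLAU had −0.18 ± 0.19 with the mutant (adjusted p = 0.437) and −0.19 ± 0.18 with WT HuR (adjusted p = 0.409). For IGFBP4 the fold change was −1.51 ± 0.28 with the mutant (adjusted p = 6.05e-05) and −1.39 ± 0.32 with WT HuR (adjusted p = 0.000849).

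These enrichments are relative to the bulk of genes, since the TMM scaling puts the median of all genes at 0.0717 with the mutant and 0.0631 with WT HuR. Scaling by the total count instead moved these medians to 1.38 and 1.12. On that scale CXCL8 reached 2.59 with the mutant and 2.49 with WT HuR, CXCL2 1.94 and 2.33, and CXCL3 2.11 and 2.04, and CXCL1 reached 1.79 with WT HuR. CXCL5 (1.10 with the mutant, 1.17 with WT HuR) and PLAU (1.12 and 0.90) were called higher in RIP, CXCL1 was called higher with the mutant (1.52, adjusted p = 1.26e-08), and the depletion of IGFBP4 was not called (−0.20, adjusted p = 0.604, and −0.36, adjusted p = 0.418). Removing the GC trend also ended the IGFBP4 calls (−0.38, adjusted p = 0.274, and −0.43, adjusted p = 0.299), and CXCL5 was then called lower with the mutant (−0.74, adjusted p = 3.34e-06). The calls for the enrichment of CXCL8 with both proteins and of CXCL2 and CXCL3 with WT HuR held in all alternatives run. The split of higher against lower calls over all genes was 6664 to 6438 with the mutant and 5875 to 5835 with WT HuR, against 16795 to 922 and 15761 to 879 under total counts.

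The number of pentamers was set beside the enrichment. Among tested coding genes with 6 to 11 copies of ATTTA, the group that holds CXCL1, CXCL2, CXCL3, CXCL5 and CXCL8, the median log2 enrichment was 0.13 with the mutant (quartiles −0.332 and 0.716) and 0.075 with WT HuR (quartiles −0.348 and 0.529, 2259 genes). Among the 3986 coding genes with no copy it was −0.499 with the mutant and −0.426 with WT HuR. CXCL8 and CXCL3 lay above the upper quartile of their group with both proteins, CXCL2 and CXCL1 did so with WT HuR, and CXCL5 lay between the quartiles with both. IGFBP4 lay below the lower quartile of genes with 1 copy. Genes with more copies also have longer 3′ UTRs, with a median of 349 bases at no copy and 4948 bases at 12 or more, and the part of length was not tested.

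**Figure D4:**
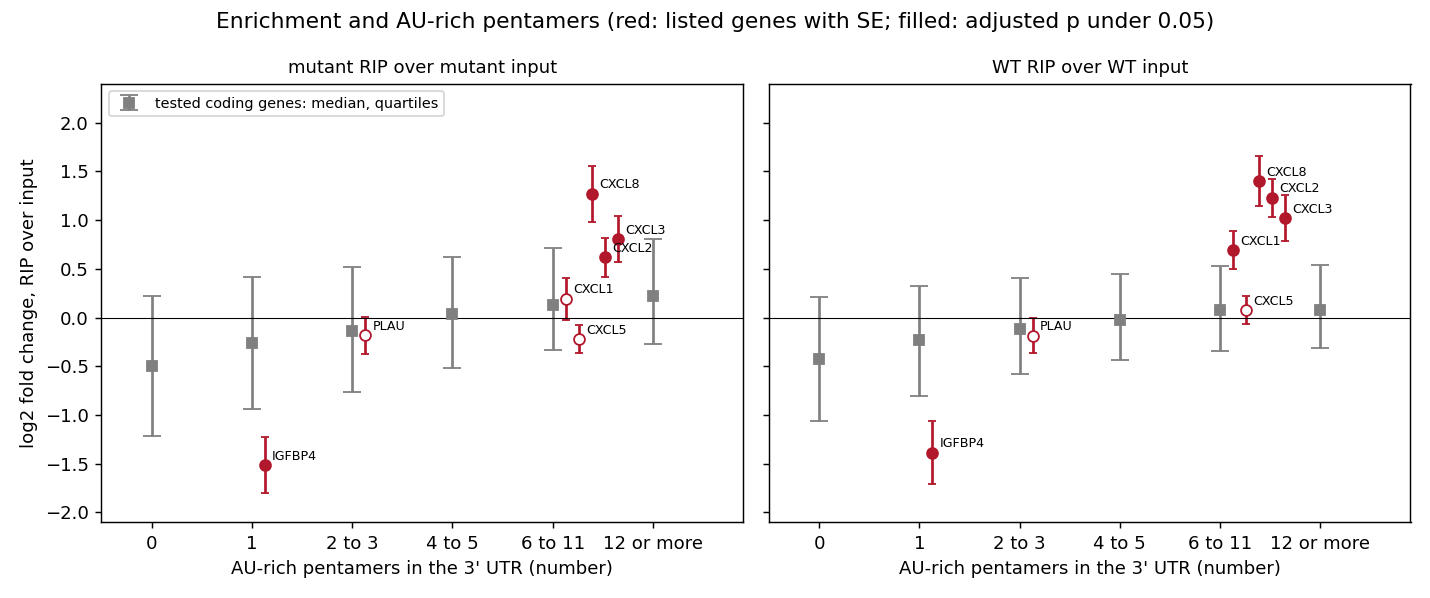
Log2 fold change of RIP over input against the number of ATTTA pentamers in the 3′ UTR, for mutant HuR (left) and WT HuR (right), with medians and quartiles of tested coding genes in grey and the 7 genes with their SE in red (filled where the adjusted p was under 0.05). The grey medians go from −0.499 to 0.225 on the left and −0.426 to 0.079 on the right, and CXCL8 lies above its group's upper quartile in both. The GC trend was not removed from these values.

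Whether enrichment differed between the lines was tested as the difference of the enrichments, mutant minus WT. As each HuR came in its own line, the mutation cannot be told apart from other differences between the lines. None of the 7 genes was called in edgeR's test, beside 0.0653% of all genes tested (15 genes). At an unadjusted p under 0.05 there was 1 gene, CXCL2, which was lower, as were 1258 of all 22984 genes tested. DESeq2 gave an adjusted p to 8279 genes and called 434 of them, with 0 of the 7. For CXCL2 the difference was −0.61 ± 0.28 (95% interval −1.19 to −0.037, unadjusted p = 0.0378, adjusted p = 0.344). Without WT input 3 it was −0.38, without WT input 2 it was −0.91, and it was not called with any library left out. For CXCL1 it was −0.50 ± 0.29 (95% interval −1.10 to 0.094, adjusted p = 0.481), so the call with WT HuR alone does not show that its enrichment differed. The intervals ran from −0.72 to 0.12 for CXCL5, −0.91 to 0.48 for CXCL3, −0.96 to 0.69 for CXCL8, −1.05 to 0.80 for IGFBP4 and −0.54 to 0.55 for PLAU. A difference of −0.5 on the log2 scale lies inside the interval of each of the 7 genes, so these data do not show that the enrichments were alike. The enrichments and their difference use the same libraries as the comparisons of precipitates and of inputs, so they are not separate evidence from those.

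Genes whose log2 CPM followed those of the listed genes over the 12 libraries were sought among 9783 coding genes. The most alike were GPX7, MEST and ARPC5 for CXCL1 (Pearson r = 0.974, 0.97 and 0.968), CFLAR, ZNF708 and STX12 for CXCL8 (0.964, 0.96 and 0.957), and LEPROT, B3GALNT1 and BORCS7 for CXCL5 (0.977, 0.961 and 0.949). For CXCL2 they were ARMCX5, BTG2 and FAM76B (0.949, 0.941 and 0.929), and for PLAU ZNF622, TPGS2 and MRPL49 (0.936, 0.925 and 0.921). None of these is a chemokine. Among the 7 genes r was 0.892 for CXCL1 with CXCL5, 0.842 for CXCL1 with CXCL8, 0.603 for CXCL2 with CXCL3, −0.406 for CXCL3 with CXCL5 and −0.948 for CXCL8 with IGFBP4. These values describe 12 libraries that share 4 groups, and carry no test.

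Other chemokines were few at measurable levels: 9 of 31 with an identifier passed the filter (39 were listed). Between inputs 1 was lower in the mutant, and between precipitates 3 were lower, beside 10% and 9.76% of all genes, with no gene higher in edgeR's test. The input count is near that background. At an unadjusted p under 0.05, 1 was higher between inputs and 0 between precipitates, and DESeq2 called 0 higher in both. CXCL6, another ELR chemokine that lies in the same chromosome 4 cluster, averaged 0.0935 CPM in mutant RIP, against 0.723 CPM in WT RIP, and 0.0574 CPM in mutant input, against 0.518 CPM in WT input. Its log2 fold change was −2.83 ± 0.62 in precipitates (adjusted p = 0.00188) and −3.18 ± 0.76 in inputs (adjusted p = 0.00454), at levels of well under 1 CPM. CXCL10, an interferon-induced chemokine, was lower in mutant than in WT precipitates (−1.06, adjusted p = 0.0343), although its libraries overlapped.

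CCL20, which attracts CCR6-bearing cells, was the most abundant of these other chemokines. It averaged 228 ± 12.4 CPM in mutant RIP and 224 ± 10.4 CPM in WT RIP, and 104.8 ± 10.9 CPM in mutant input and 98.0 ± 15.1 CPM in WT input (SD, n = 3 each). It was enriched with the mutant (1.12 ± 0.13, adjusted p = 9.39e-08) and with WT HuR (1.19 ± 0.13, adjusted p = 6.1e-08), and was not called between inputs (0.096, adjusted p = 0.679). The membrane-anchored chemokines CXCL16 and CX3CL1 were depleted with both proteins (CXCL16 −1.53 with the mutant and −1.20 with WT HuR, CX3CL1 −1.79 and −1.45). The receptors of the ELR chemokines, CXCR1 and CXCR2, were barely read, with 0 counts for CXCR1 in all libraries and at most 2 for CXCR2 in any. Of 14 chemokine receptors 6 were tested, with 2 higher and 1 lower in mutant than in WT libraries, both in inputs and in precipitates, beside 17.5% and 19.6% of all genes called in either direction. The scavenging receptor ACKR3 was near the floor in the WT line, averaging 0.135 CPM in WT input and 0.141 CPM in WT RIP. It was higher in mutant than in WT input (3.38 ± 0.49, adjusted p = 3e-05) and in mutant than in WT RIP (2.21, adjusted p = 0.00128). CCR6, the receptor of CCL20, was higher in both (0.62, adjusted p = 0.00411, and 0.55, adjusted p = 0.00714), and CCR1, an inflammatory chemokine receptor, was lower in both (−1.03, adjusted p = 0.0256, and −0.98, adjusted p = 0.0279).

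Of 41 other SASP genes with an identifier, 24 passed the filter, and 9 were called between inputs (6 higher, 3 lower in the mutant) and 9 between precipitates (3 higher, 6 lower). Of all genes, 17.5% were called between inputs (7.47% higher, 10% lower) and 19.6% between precipitates (9.87% higher, 9.76% lower), so the 3 lower in inputs and the 3 higher in precipitates are near the background. Values in the next sentences are log2 fold changes of mutant over WT. STC2, a stanniocalcin, was higher in the mutant in both (1.65 in inputs, 1.72 in precipitates), as were the cytokine CSF1 (1.57 and 1.01) and the angiogenic factor VEGFA (0.60 and 0.49). The matricellular protein CCN1 (−0.74 and −1.09) and the cytokine IL32 (−0.56 and −1.43) were lower in both. IL6, the cytokine most linked to this set, had at most 8 counts in a library.

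In the plasminogen and metalloproteinase inhibitor system, where PLAU and TIMP1 act, 11 of 12 other genes were tested. Between inputs 5 were higher in the mutant and none was lower in edgeR's test (1 lower at an unadjusted p under 0.05, 0 by DESeq2), and between precipitates 4 were higher and 3 lower. Of all genes, 7.47% were higher and 10% lower between inputs, and 9.87% and 9.76% between precipitates. SERPINE2, an inhibitor of serine proteases, was higher in mutant than in WT input and RIP (log2 fold change 1.97, adjusted p = 4.09e-05, and 2.38, adjusted p = 9.41e-06), as was PLG, plasminogen itself, in inputs (1.53, adjusted p = 0.000912). Both were low in the WT line, SERPINE2 averaging 0.803 CPM in WT input and 0.251 CPM in WT RIP, and PLG 0.767 CPM in WT input. Among those lower in mutant than in WT RIP were SERPINF2 (−0.51, adjusted p = 0.0107) and TIMP2 (−0.55, adjusted p = 0.0153). PLAUR, the urokinase receptor, was not called between inputs (0.34, adjusted p = 0.466).

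Of the insulin-like growth factor axis, 10 of 13 other genes were tested, with 2 higher and 1 lower in mutant than in WT input and 2 higher and 2 lower between precipitates. These shares stand beside 7.47% higher and 10% lower of all genes in inputs, and 9.87% and 9.76% in precipitates, and the share lower in inputs is at the background. IGFBP6, a binding protein with preference for IGF2, was higher like IGFBP4 (1.42, adjusted p = 3.15e-05 in inputs, 0.79, adjusted p = 0.00883 in precipitates), and the protease gene PAPPA2 was higher as well (1.22 and 1.28). IGF2, the growth factor, was lower in the mutant in both (−0.69, adjusted p = 0.00236, and −1.0, adjusted p = 4.62e-05).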

How the data were processed

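The submitters' processing notes name the build hg19 and the tools bcl2fastq (2.20.0.422), cutadapt, STAR (2.4.0j) and featureCounts (1.6.4). Libraries were made with a stranded total RNA kit, per the labels' protocols. The annotation release, strand setting and handling of multiply mapped reads are not given in the sources used here. Each library's deposited file lists unnormalized counts by Ensembl gene. Of 57773 identifiers, 55538 matched GENCODE release 44 on GRCh37, and the rest took at most 21% of the counts of any library. Of the 136856 counts above 0 and up to 20, 74.1% were even, so counts may not be independent molecules, and floors cover counting error only.

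With R 4.3.3, edgeR 4.0.16 (limma 3.58.1) fitted all 12 libraries in 1 robust quasi-likelihood model of 4 groups (8 residual degrees of freedom, common biological coefficient of variation 0.157) after filterByExpr (minimum count 10, minimum total 15) and TMM scaling (factors 1.32 to 1.78 in RIP, 0.526 to 0.909 in input). Calls needed a Benjamini-Hochberg adjusted p under 0.05 over 22984 genes. Standard errors came from the F statistic, intervals from its degrees of freedom. CPM use TMM library sizes. Replicates differed by more than sampling noise (chi-square per degree of freedom 13.6 to 203). Figures and sequences used Python 3.11.15, numpy 2.4.6, pandas 2.3.3 and matplotlib 3.10.9. The fit was run on simulated counts with changes in mutant RIP only. Those counts lacked the wide differences of RIP from input seen here, so they did not check the scaling. DESeq2 1.42.0 and other alternatives are in the closing section.

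The members and lists were chosen with earlier results of these data known. The text names the 9 genes, ELAVL1, for genes at a mean log2 CPM of 2 or more the 3 most alike, and called genes among the 4 smallest adjusted p of each list and comparison. IL6, PLAUR, CXCR1, CXCR2 and C10orf55 were added after their values were seen. A result that the rule selects is not reported here.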

Additional observations from a re-analysis of the deposited data

How the results depend on the processing

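Of 813 values of the 7 genes under alternatives, 754 kept direction and side of the threshold, 23 lost it, 4 passed it and 32 changed sign. Under total library size the log2 fold changes that changed sign were −0.17 (CXCL2) and −0.077 (CXCL3) in inputs, −0.0098 (CXCL3) in precipitates, 1.10 (CXCL5) and 1.12 (PLAU) for the mutant enrichment, 0.90 (PLAU) for the WT enrichment, and 0.067 (CXCL3), 0.11 (CXCL8) and 0.16 (IGFBP4) for the difference of enrichments. With the GC trend removed they were −0.18 (CXCL5) and 0.20 (PLAU) for the WT enrichment, 0.29 (PLAU) for the mutant enrichment and 0.044 (IGFBP4) for the difference; with the replicate block as well they were −0.18, 0.20, 0.28 and 0.055. With the replicate block alone the PLAU difference was −0.0079, and with the block within line −0.020. Leaving out 1 library each gave −0.067 to 0.29 for the CXCL5 WT enrichment, −0.33 to 0.0084 for the PLAU mutant enrichment, and −0.47 to 0.11 (CXCL8), −0.31 to 0.069 (IGFBP4) and −0.14 to 0.20 (PLAU) for the difference. The cause of these changes was not tested.

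The number of all genes called for the difference of enrichments, 15, moved to 105 under total library size, 25 with TMM from coding genes, 434 with DESeq2, 185 without a filter, 1 at 50 counts or more in 3 libraries, 23 with the replicate block, 105 with the block within line, 30 with the GC trend removed, 190 with both GC and the replicate block, and 0 with a fold limit of 0.5. Leaving out 1 library gave 0 to 75. Input calls moved to 7208 under total library size and 549 with the fold limit (2195 to 4160 without 1 library). Precipitate calls moved to 710 with the fold limit (2796 to 5129 without 1 library) and WT enrichment calls to 6788. The fold limit left 3, 2 and 3 of the 7 genes called in inputs, mutant enrichment and precipitates, and leaving out 1 library left 3 to 5 in inputs. Replicate numbers shared between RIP and input of a line did not pair the libraries throughout (correlations of deviations 0.293, 0.151 and −0.165 for WT, 0.294, −0.0336 and 0.411 for the mutant). Between RIP of both lines, like numbers correlated at 0.363, 0.596 and 0.0419, against −0.457 to 0.156 for unlike numbers. Numbers 1 and 2 were thus above every unlike pair, whereas library 3 of WT RIP was closer to library 1 than to library 3 of mutant RIP. The origin of this likeness was not tested, and the block changed no call of the 7 genes. Higher against lower calls were 6664 to 6438 (mutant) and 5875 to 5835 (WT) for the enrichments, 2268 to 2244 in precipitates and 1716 to 2301 in inputs; TMM from coding genes gave 2775 to 1836 in precipitates and 2077 to 1890 in inputs, GC removal gave 2381 to 2057 in inputs, and total library size gave 776 to 2529 and 386 to 6822.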

Other observations

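Genes of NF-κB and C/EBP regulators, with JUN and ATF3 among them, were also followed. The promoter motif described above is of the NF-κB type, and sites for the other factors were not sought. Of 18 tested, 6 were higher and 2 lower in mutant than in WT input, and 3 were higher and 2 lower in mutant than in WT RIP. Of all genes 7.47% were higher and 10% lower between inputs, and 9.87% and 9.76% between precipitates, so the counts of lower genes are near the background. CEBPB, a C/EBP transcription factor, was higher in mutant than in WT input (log2 fold change 0.76, adjusted p = 0.000912, edgeR), as were ATF3 (1.13, adjusted p = 0.00207), JUN (0.73, adjusted p = 0.000381) and RELA, an NF-κB subunit (0.49, adjusted p = 0.012). TNFAIP3, an inhibitor of the NF-κB pathway, was 1 of the 2 lower in mutant than in WT RIP (−0.68, adjusted p = 0.0096). Of the 3 higher there, NFKB1 was at 0.40 (adjusted p = 0.034) and JUN at 0.39 (adjusted p = 0.0392). Over input, 5 regulators were higher and 10 lower with the mutant, and 4 higher and 5 lower with WT HuR, beside 29% higher and 28% lower of all genes with the mutant and 25.6% and 25.4% with WT HuR. CEBPB was depleted with the mutant (−1.16), as were NFKBIB (−1.38) and CEBPA (−0.99). CEBPA was depleted with WT HuR too (−0.77, adjusted p = 4.8e-05, edgeR). CEBPB averaged 6.52 CPM in WT RIP and 9.18 CPM in WT input, and NFKBIB 4.49 and 6.7 CPM. None of the 18 was called for the difference of enrichments. NFKBIA, the NF-κB inhibitor gene, was enriched over input with the mutant (1.36, adjusted p = 3.06e-10) and with WT HuR (1.48, adjusted p = 1.66e-10).

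Of 10 genes that encode AU-rich element binding proteins, 1 was higher and 2 lower in mutant than in WT input, and 1 higher and 2 lower between precipitates, which is near the background given above for the genes called higher. ZFP36, which directs AU-rich mRNAs to decay, was higher in mutant than in WT input (0.66, adjusted p = 0.00862). CELF1 (−0.38, adjusted p = 0.023) and TIA1 (−0.43, adjusted p = 0.0382) were lower there. ZFP36L2, a relative of ZFP36, was lower in mutant than in WT RIP (−0.85, adjusted p = 4.73e-05), as was KHSRP (−0.42, adjusted p = 0.0495). TIAL1 was higher in mutant than in WT RIP (0.72, adjusted p = 0.000276).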
